A study of Homo sapiens with 6 samples.

Results

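The ERBB receptors and the ligands of the epidermal growth factor (EGF) family were followed in NCI-N87, an established human gastric cancer line that carries many copies of ERBB2. The 10 genes were picked by name, with earlier results of these data known, out of 58735 genes in the deposited tables. They are 4 receptors (EGFR, ERBB2, ERBB3, ERBB4) and 6 ligands (TGFA, AREG, EREG, BTC, HBEGF, NRG1). RNA was sequenced from 3 libraries of cells that received the plasmid PLVX-IRES-Puro with EGLN3, and from 3 control libraries that received the same plasmid empty. The EGLN3 enzyme hydroxylates prolines, among others in hypoxia-inducible factors (HIF), which are then degraded, and the title of the series names inhibition of proliferation as its subject. All 6 cultures went through 7 days of puromycin, after 1 day with the plasmid in 5 libraries and 5 days in EGLN3 replicate 3, per the labels. The labels name neither the promoter of the plasmid nor a clone. Whether the replicates are separate cultures is not stated, so p-values here speak only of the spread among these 6 libraries, and that spread may be technical.

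Library totals ran from 15157265 to 16767383 counts. EGLN3 itself had 9 to 11 counts in the controls and 7298, 27674 and 27494 in EGLN3 replicates 1 to 3, with a 95% interval from 627.2 to 6721 times the control level (edgeR quasi-likelihood test, adjusted p = 0.031). That adjusted p passed 0.05 when EGLN3 replicate 1 was left out and missed it when any other library was. Of 10 epithelial markers, KRT19, KRT8 and KRT18 lay between 1182 and 4913 FPKM in every library, EPCAM averaged 162.7 FPKM, and CDX1 had no count in any library. FPKM are the deposited values, counts scaled by gene length and library. Summed levels of 6 fibroblast markers were 4.77 to 5.52 CPM (counts scaled by library, not by length) in controls. With EGLN3 they were 3.89 to 4.62 CPM, and COL1A2 and LUM were at 0 throughout. The 5 immune markers summed to 3.26 to 4.96 and 2.73 to 6.20 CPM, with LST1 at 0, and the 5 endothelial markers to 1.40 to 1.57 and 0.830 to 1.62 CPM. The part of these markers in the results was not tested. In these bulk libraries, fewer cells of a type and less RNA per cell cannot be told apart.

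ERBB receptors are tyrosine kinases of the cell surface that work in pairs and pass growth signals to the RAS-MAPK and PI3K-AKT pathways. EGFR binds TGFA and AREG, ERBB3 binds neuregulins such as NRG1 but has very weak kinase activity of its own, and ERBB4 binds both neuregulins and some EGFR ligands. ERBB2 has no known ligand and serves as a partner for the others, and it is the target of trastuzumab in gastric cancers with ERBB2 amplification. The ligands are made as membrane proteins and are released by proteases such as ADAM17, so a cell that makes both ligand and receptor can stimulate itself.

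The sequences at the starts of 3 members are printed because EGLN3 acts on HIF and because AREG and EREG are neighbours on chromosome 4 whose levels took different courses across the libraries. A promoter was held for 8 of the 10 genes in the RefSeq table of GRCh38.p14. Each line gives the 250 bases before the RefSeq start, 5′ to 3′ on the strand of the gene, which is the plus strand for all 3. The RefSeq starts differ from those of the deposited tables, and the last 2 bases of the AREG and EREG windows lie inside the deposited gene spans. Capitals mark the HIF core word, searched as ACGTG and GCGTG on both strands, so that the capitals of EREG are GCGTG on the other strand. Of the pair of EGFR starts in the table, the first is shown.
AREG, chr4:74444886-74445135: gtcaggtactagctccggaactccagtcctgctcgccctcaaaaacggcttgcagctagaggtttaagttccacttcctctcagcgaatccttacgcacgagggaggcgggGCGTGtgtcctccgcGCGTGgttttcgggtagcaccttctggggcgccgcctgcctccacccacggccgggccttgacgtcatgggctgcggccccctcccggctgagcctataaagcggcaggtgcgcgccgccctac
EREG, chr4:74364895-74365144: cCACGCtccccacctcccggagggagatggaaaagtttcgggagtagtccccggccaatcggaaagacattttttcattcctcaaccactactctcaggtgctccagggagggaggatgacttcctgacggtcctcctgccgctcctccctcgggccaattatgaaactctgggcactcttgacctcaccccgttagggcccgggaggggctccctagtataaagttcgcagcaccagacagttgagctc
EGFR, chr7:55018767-55019016: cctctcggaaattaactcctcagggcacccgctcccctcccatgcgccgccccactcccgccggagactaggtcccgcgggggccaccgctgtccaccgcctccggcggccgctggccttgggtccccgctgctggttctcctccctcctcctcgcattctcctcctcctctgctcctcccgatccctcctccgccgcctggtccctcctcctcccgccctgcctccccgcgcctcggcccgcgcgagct

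The HIF core word occurred 2 times in the AREG window, 1 time in that of EREG and 0 times in that of EGFR. It occurred in 43.2% of all 35116 promoters of the same length. The TATA word TATAAA, searched on both strands and held by 10.7% of all promoters, began 29 bases before the AREG start and 32 bases before the EREG start, and was not in the EGFR window. The GC box GGGCGG on either strand, held by 42.6% of promoters, was found 2 times for EGFR and 1 time for AREG. GC content of the windows was 73.6% for EGFR, 65.2% for AREG and 58% for EREG, against a median of 58% over all promoters. The window of the second EGFR start, not printed, differed from the first. It held TATAAA 2 times, beginning 146 and 36 bases before that start, with 0 GC boxes and 38.8% GC. A match of letters is a description and not a binding site.

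ERBB2 stood far above the other receptors in every library. The gene (ENSG00000141736, plus strand of chromosome 17, 39687914 to 39730426) measured 989.9, 999.5 and 893.9 FPKM in control replicates 1 to 3 and 814.9, 907.3 and 893.9 FPKM in EGLN3 replicates 1 to 3. Control replicates 1 and 2 were highest and EGLN3 replicate 1 lowest, and the groups overlapped, since EGLN3 replicate 2 lay above control replicate 3. ERBB2 ranked between 25 and 46 among all genes by FPKM, and it was the receptor tyrosine kinase of highest FPKM in all 6 libraries, of 58 listed. EPHA2, an ephrin receptor, was the next by mean FPKM, and the ERBB2 level per length was 10.5 to 12.1 times that of EPHA2. The annotated span of ERBB2 shares 1931 bp with MIEN1 and 8884 bp with PGAP3 on the opposite strand, and no source used here says whether counting used strand, so reads from the shared parts could belong to either gene. MIEN1 held 12.97% and PGAP3 4.55% as many counts as ERBB2. EGFR-AS1, antisense within EGFR, had 53 counts.

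**Figure D1:**
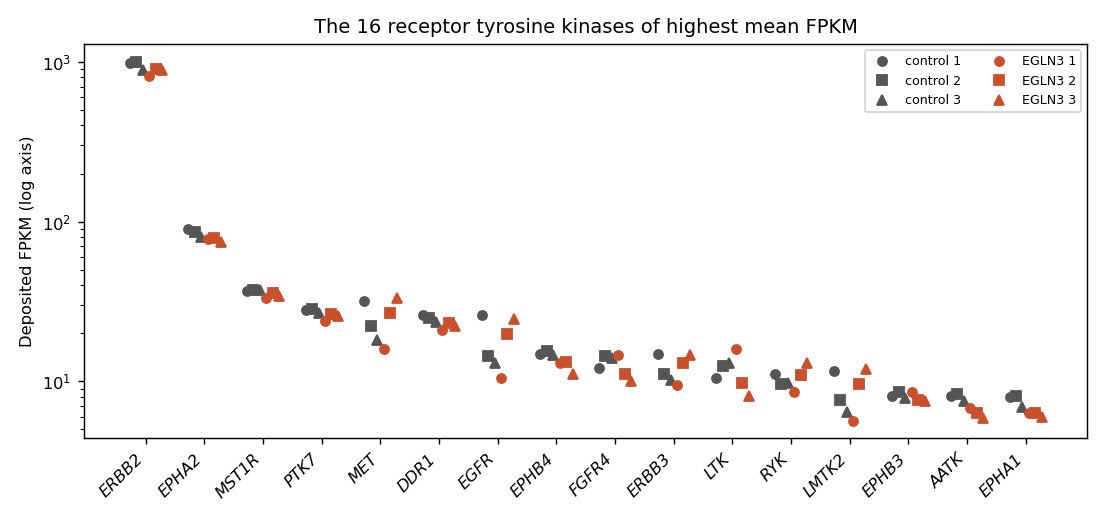
Deposited FPKM on a log axis for the 16 receptor tyrosine kinases of highest mean FPKM. Each point is 1 library, grey for the empty plasmid and orange for the EGLN3 plasmid, with a shape for each replicate. ERBB2 lies at 814.9 to 999.5 FPKM and EPHA2, the next, at 74.1 to 89.6 FPKM.

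EGFR, the receptor for most EGF-family ligands, was the second ERBB receptor and the most uneven. The gene (ENSG00000146648, plus strand of chromosome 7, 55019021 to 55211628) measured 26.1, 14.5 and 13.0 FPKM in controls 1 to 3 and 10.5, 19.9 and 24.7 FPKM in EGLN3 replicates 1 to 3. Its highest library was control replicate 1 and its lowest EGLN3 replicate 1, and the groups overlapped, with EGLN3 replicates 2 and 3 inside the control range. Among receptor tyrosine kinases it ranked between 6 and 10.

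ERBB3, the neuregulin receptor that signals mainly through its partners, followed the same order of libraries as EGFR with less spread. It (ENSG00000065361, plus strand of chromosome 12, 56076799 to 56103505) measured 14.9, 11.1 and 10.2 FPKM in controls 1 to 3 and 9.55, 13.0 and 14.6 FPKM in EGLN3 replicates 1 to 3. It ranked between 8 and 11 among receptor tyrosine kinases. ERBB4 (ENSG00000178568, minus strand of chromosome 2, 211375717 to 212538841) was close to absent. It had 2, 0 and 1 counts in controls 1 to 3 and 1, 1 and 0 in EGLN3 replicates 1 to 3. Over all 6 libraries these were 5 counts of 96980179, or 0.0516 CPM with a 95% exact Poisson interval of 0.0167 to 0.120 CPM, which covers counting error only. In a library without a count, 3 counts give an upper limit of 0.188 CPM in control replicate 2 and 0.198 CPM in EGLN3 replicate 3.

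Per length, ERBB2 made up 97.0% ± 0.844 of the summed FPKM of the 4 receptors in controls and 96.6% ± 0.913 with EGLN3 (SD, n = 3 each). It was 96.0%, 97.5% and 97.5% in controls 1 to 3 and 97.6%, 96.5% and 95.8% in EGLN3 replicates 1 to 3. The difference of -0.37 percentage points was within the spread (exact two-sided permutation test, p = 0.7; 3 against 3 libraries cannot go below 0.1). EGFR held 1.25% to 2.65% of the sum and ERBB3 1.08% to 1.56% over the 6 libraries. Of the summed FPKM of all 58 receptor tyrosine kinases, ERBB2 held 72.2% to 74.2%. The ratio of ERBB2 to EGFR ran from 36.2 in EGLN3 replicate 3 to 77.8 in EGLN3 replicate 1, so it varied within the EGLN3 group more than between group means, at 58.5 in controls and 53.2 with EGLN3.

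**Figure D2:**
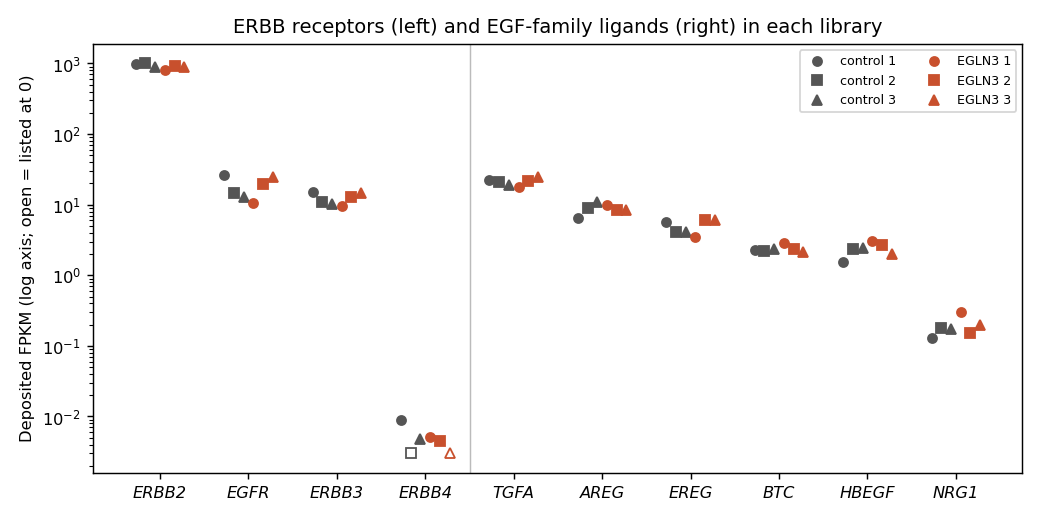
Deposited FPKM on a log axis for the 4 receptors (left) and 6 ligands (right), 1 point per library, grey for the empty plasmid and orange for the EGLN3 plasmid. Open symbols mark the 2 libraries in which ERBB4 is listed at 0, drawn at the foot of the axis at an arbitrary height. ERBB2 lies above all other members and ERBB4 below them in each library.

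NCI-N87 cells carried transcripts of all 6 ligands, with TGFA highest per length. TGFA (ENSG00000163235, minus strand of chromosome 2, 70447280 to 70554193), a ligand of EGFR, measured 22.4, 20.7 and 18.8 FPKM in controls 1 to 3 and 17.7, 21.9 and 24.3 FPKM in EGLN3 replicates 1 to 3. Its highest and lowest libraries, EGLN3 replicates 3 and 1, lay in the same group. TGFA made up 47.5% to 58.2% of the summed FPKM of the 6 ligands.

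AREG encodes amphiregulin, another ligand of EGFR. The gene (ENSG00000109321, plus strand of chromosome 4, 74445134 to 74455009) measured 6.49, 8.87 and 10.9 FPKM in controls 1 to 3 and 9.85, 8.35 and 8.31 FPKM in EGLN3 replicates 1 to 3. The control group held both its lowest and its highest library. EREG encodes epiregulin, which binds EGFR and ERBB4, and lies 56382 bp upstream of AREG on the same strand (ENSG00000124882, 74365143 to 74388751). It measured 5.62, 4.08 and 4.13 FPKM in controls 1 to 3 and 3.48, 6.01 and 6.10 FPKM in EGLN3 replicates 1 to 3. Control replicate 1, where AREG was lowest, had a higher EREG level than both other controls, and the ratio of EREG to AREG ran from 0.354 in EGLN3 replicate 1 to 0.866 in control replicate 1. TGFA and AREG together made up 76.2% ± 0.995 of ligand FPKM in controls and 74.2% ± 1.41 with EGLN3 (SD, n = 3 each; exact two-sided permutation test, p = 0.2, smallest possible 0.1).

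BTC and HBEGF, whose products betacellulin and heparin-binding EGF-like growth factor bind EGFR and ERBB4, were lower. BTC (ENSG00000174808, minus strand of chromosome 4, 74744759 to 74794686) measured 2.27, 2.22 and 2.32 FPKM in controls and 2.87, 2.38 and 2.16 FPKM in EGLN3 replicates 1 to 3. HBEGF (ENSG00000113070, minus strand of chromosome 5, 140332843 to 140346631) measured 1.55, 2.39 and 2.41 FPKM in controls and 3.05, 2.65 and 1.97 FPKM in EGLN3 replicates 1 to 3. For both genes EGLN3 replicates 1 and 2 lay above all controls and EGLN3 replicate 3 did not. NRG1 (ENSG00000157168, plus strand of chromosome 8, 31639386 to 32767959), the neuregulin that binds ERBB3 and ERBB4, was the lowest ligand. It had 26, 32 and 32 counts in controls 1 to 3 and 52, 29 and 37 in EGLN3 replicates 1 to 3, or 0.131 to 0.302 FPKM.

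Ordered by mean FPKM over the 6 libraries, the members ran ERBB2, TGFA, EGFR, ERBB3, AREG, EREG, BTC, HBEGF, NRG1 and ERBB4. The 9 pairs of neighbours were compared within libraries on log2(FPKM + 0.01) with an exact two-sided sign-flip permutation test. Of these, 6 pairs differed in the same direction in 6 of 6 libraries (permutation test, adjusted p = 0.0469, from the smallest p that 6 libraries can give). The order that set the pairs came from the same 6 libraries, so these p-values do not test it independently. TGFA and EGFR (4 of 6 libraries, adjusted p = 0.211 in the permutation test), ERBB3 and AREG (4 of 6 libraries, adjusted p = 0.161) and BTC and HBEGF (2 of 6 libraries, adjusted p = 0.875) did not differ beyond their spread. Deposited gene lengths take in all annotated exons, 10321 bases for ERBB2 against 4792 in its longest coding transcript. With lengths of the longest coding transcript, chosen after seeing the data, the mean over 6 libraries was 1997 for ERBB2 and 24.5 for TGFA, in place of 916.6 and 21.0 FPKM. EGFR and ERBB3 then no longer differed (adjusted p = 0.105 in the permutation test), ERBB3 and AREG did (adjusted p = 0.0469), and HBEGF came before BTC.

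Several members differed widely among libraries of the same group. The highest CPM within a group exceeded the lowest 2.02 times in controls and 2.39 times with EGLN3 for EGFR, and 1.39 and 1.77 times for EREG. For ERBB3 these ratios were 1.47 and 1.55 times, and for ERBB2 1.12 and 1.12 times. Over all 6 libraries the ratio was 2.52 for EGFR and 1.23 for ERBB2. EGFR, ERBB3, EREG and TGFA were each higher in control replicate 1 and EGLN3 replicates 2 and 3 than in the other 3 libraries. EGLN3 replicate 1, with the least EGLN3 of its group at 481 CPM, had the lowest EGFR level. Control replicate 1, with EGLN3 at 0.582 CPM, had the highest. The relation between the levels of EGLN3 and EGFR was not tested. AREG, HBEGF and NRG1 were all lowest in control replicate 1.

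**Figure D3:**
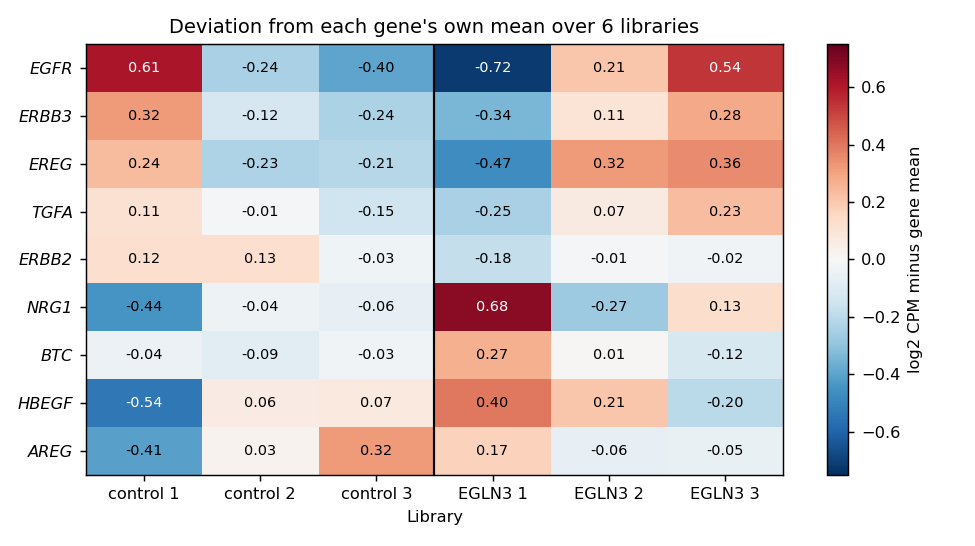
Log2 CPM of each tested member (rows) minus its own mean over the 6 libraries (columns), with controls left of the line and EGLN3 libraries right of it. Red is above and blue below the mean. EGFR runs from -0.72 in EGLN3 replicate 1 to 0.61 in control replicate 1, while ERBB2 stays between -0.18 and 0.13.

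The first principal component of all tested genes, with 70% of the variance, ordered the libraries in nearly the same way and did not separate the plasmids. Its scores were -36.2, 11.5 and 34.4 in controls 1 to 3 and 59.4, -23.3 and -45.9 in EGLN3 replicates 1 to 3. Over the 6 libraries, which share these scores, Pearson's r of log2 CPM with the score was -0.98 for EGFR, -0.98 for ERBB3, -0.98 for TGFA and -0.96 for EREG. It was 0.77 for AREG, 0.74 for HBEGF, 0.71 for BTC, 0.66 for NRG1 and -0.56 for ERBB2. The part of this first component in the members' differences was not tested. Scores on the second component were -11.3, -20.8 and -11.1 in controls 1 to 3. In EGLN3 replicates 1 to 3 they were 19.2, 7.81 and 16.2, so the second component did separate the plasmids. Its relation to the members was not tested.

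As a measure of likeness, Pearson's r of log2 CPM over the 6 libraries was taken between each member of at least 10 CPM and 9375 other protein-coding genes at that level. EGFR was most like LRBA (r = 1.00), VANGL1 (r = 0.999) and ZNF618 (r = 0.999), and 1534 genes had an r over 0.95 with it. ERBB3 was most like FRAS1, SYNJ2 and SEMA5A, with 1545 genes over 0.95. TGFA was most like FANCM, ZNF638 and UBQLN2, with 1349 such genes, and EREG most like CCNYL1, ACBD3 and EIF2S3, with 950. ERBB2 was most like ARAP1 (r = 0.99), PCDH1 (r = 0.99) and HNRNPL (r = 0.99), with 60 genes over 0.95. AREG was most like CPSF3 (r = 0.99), TRIM59 (r = 0.99) and PPIL1 (r = 0.98), with 10. Among the members themselves, EGFR and ERBB3 had an r of 0.997, and EREG and AREG had -0.677. These values describe 6 libraries and carry no test.

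No receptor or ligand passed the test for a change with EGLN3. Of the 9 members with enough counts, ERBB4 having too few, 0 were called at an adjusted p under 0.05 and 0 had an unadjusted p under 0.05 (edgeR quasi-likelihood test over 15726 genes). Over all genes tested, 0.00636% were called, which is EGLN3 alone, and 1.11% had an unadjusted p under 0.05. DESeq2 also called 0 of the 9. The groups did not overlap in CPM for 0 of the 9, against 6.26% of all genes, 2.64% with EGLN3 higher and 3.62% with EGLN3 lower. The log2 fold change was positive for 8 of the 9 and negative for ERBB2, with medians of 0.14 over the 6 ligands and 0.03 over the 3 tested receptors, against 0.01 over all genes tested. With 1 surrogate variable and the GC and length trends removed, these medians were 0.02 for the ligands and -0.05 for the receptors.

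The ERBB2 mean was 10038 ± 630.1 CPM in the control group against 9087 ± 558.3 CPM in the EGLN3 group (SD, 3 libraries each). On the log2 scale this was a difference of -0.14 (SE 0.15; edgeR, adjusted p = 1), with a 95% interval from 0.705 to 1.16 times the control level. EGFR was at 0.04 (SE 0.39), and its interval was the widest of the receptors, from 0.535 to 1.96 times. ERBB3 was at 0.03 (SE 0.22), from 0.707 to 1.48 times. The EGFR log2 fold change was 0.42 without control replicate 1 and -0.25 without EGLN3 replicate 3, so single libraries set its direction.

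Among the ligands, the log2 fold change was 0.42 (SE 0.32) for NRG1 and 0.27 (SE 0.25) for HBEGF, the largest with all 6 libraries. Without control replicate 1 they were 0.29 and 0.09, below EREG at 0.34, and without EGLN3 replicate 1 they were 0.13 and 0.14, below EREG at 0.40. With all 6 libraries the 95% interval ran from 0.788 to 2.27 times the control level for NRG1 and, for HBEGF, from 0.801 to 1.81 times. For HBEGF the control mean was 6.46 ± 1.47 CPM and the EGLN3 mean 7.78 ± 1.61 CPM (SD, 3 libraries each). Without EGLN3 replicate 3, which had 5 days with the plasmid, BTC and HBEGF were the 2 members whose groups no longer overlapped, both higher with EGLN3. Of all genes, 4.59% lay in that direction, against 2.64% with all 6 libraries. In the other direction lay 5.44% of all genes and no member. Overlap was not checked with any other library left out. EREG was at 0.17 (SE 0.26), BTC at 0.12 (SE 0.17), TGFA at 0.04 (SE 0.16) and AREG at 0.01 (SE 0.21), each with an edgeR adjusted p of 1. The TGFA interval, from 0.786 to 1.35 times, was the narrowest of the 6 ligands on the log scale, and that of AREG ran from 0.712 to 1.43 times.

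**Figure D4:**
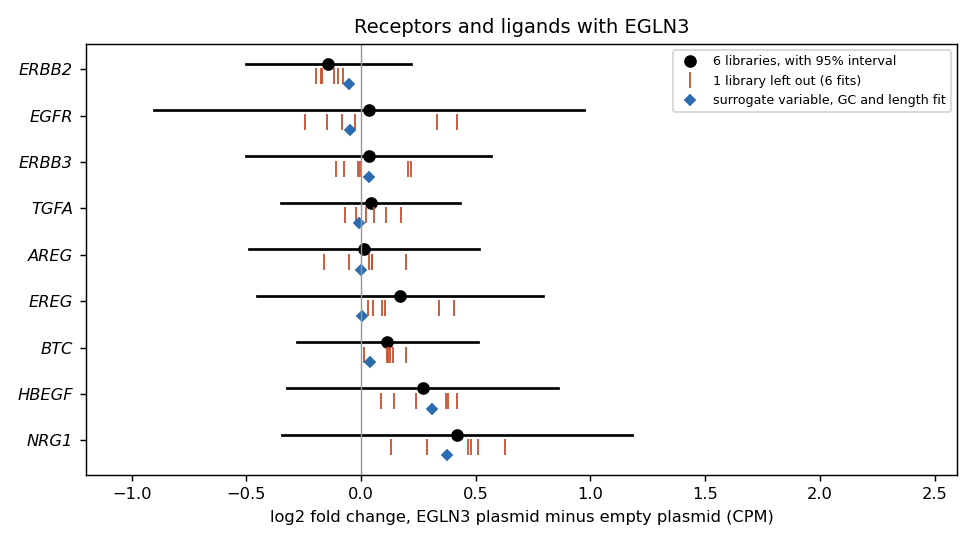
Log2 fold change in CPM, EGLN3 plasmid minus empty plasmid, for the 9 tested members. Black points and bars are the fit of 6 libraries with its 95% interval, orange ticks the 6 fits that left out 1 library each, and blue diamonds the fit with a surrogate variable and GC and length trends removed. All 9 black intervals include 0, and the EGFR ticks run from -0.25 to 0.42.

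Of 5 other ligands of the family, NRG4, a ligand of ERBB4, had the highest level per length at 1.57 FPKM, while EGF itself averaged 0.261 FPKM and NRG2 0.164 FPKM. The deposited length of NRG4 is 5031 bases, against 1159 in its longest coding transcript, which lowers its FPKM. EPGN had 14 counts in all 6 libraries, and NRG3 had 0, which allows up to 0.179 to 0.198 CPM per library at 3 counts. None of the 3 tested passed (edgeR, adjusted p = 1), and NRG4 was at a log2 fold change of 0.25 (SE 0.23).

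Of 6 genes for ligand shedding, 0 were called, 2 were higher and 4 lower (median -0.11). FURIN, a proprotein convertase that activates ADAM proteases, was the highest at 67.0 FPKM on average. It measured 75.5, 71.4 and 71.7 FPKM in controls and 62.8, 62.4 and 58.2 FPKM in EGLN3 replicates 1 to 3, so its groups did not overlap, against 3.62% of all genes with EGLN3 lower. FURIN was at a log2 fold change of -0.26 (SE 0.12), with an unadjusted p of 0.0669 and an adjusted p of 1 in edgeR. With 1 surrogate variable, where 711 of 15726 genes were called, FURIN was called at -0.26 (edgeR, adjusted p = 0.00293). With GC and length trends removed as well, 145 of 15726 genes were called and FURIN was not. RHBDF2, an iRhom that carries ADAM17 to the surface, also had groups that did not overlap, at -0.17 (SE 0.11). ADAM10 averaged 23.0 FPKM and ADAM17, the main sheddase of these ligands, 3.50 FPKM, at log2 fold changes of 0.04 (SE 0.26) and 0.17 (SE 0.48).

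The list of receptor brakes held 15 genes, not all of which restrain ERBB receptors. Of these 15, 0 were called, 10 were higher and 5 lower (median 0.10), and for 0 did the groups not overlap. USP8 and NRDC, which are not brakes, were among the higher, at log2 fold changes of 0.22 and 0.07. CBLC, a ubiquitin ligase of the CBL family, was the highest at 33.2 FPKM, with a log2 fold change of -0.05 (SE 0.21). ERRFI1, a feedback inhibitor of ERBB kinases, averaged 5.88 FPKM and was at 0.11 (SE 0.19). Of 17 adaptors and RAS-MAPK components, 0 were called, 9 were higher and 8 lower (median 0.07). SHC1, an adaptor, was called with 1 surrogate variable alone, at -0.22 (edgeR, adjusted p = 0.0162), and the list median was then -0.02. That fit called 711 of all 15726 genes tested. GRB7, an adaptor encoded 7500 bp from ERBB2, averaged 524.1 FPKM and was at -0.07 (SE 0.24). The ratio of ERBB2 to GRB7 ran from 1.21 in EGLN3 replicate 1 to 2.22 in control replicate 1, and these 2 neighbours took different courses across the libraries.

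Of 12 tested PI3K-AKT genes, 0 were called, 9 were higher and 3 lower (median 0.06). The kinases AKT1 and AKT2 were the 2 whose groups did not overlap, both with EGLN3 lower, against 3.62% of all genes. AKT2 measured 14.4, 14.5 and 13.8 FPKM in controls and 12.9, 12.8 and 11.6 FPKM with EGLN3, at -0.20 (SE 0.12; edgeR, adjusted p = 1), and AKT1 was at -0.23 (SE 0.13). With 1 surrogate variable both were called (edgeR, adjusted p = 0.022 for AKT2 and 0.0112 for AKT1), and with the trends removed as well neither was, the list median being -0.04 and -0.02. Over all 15726 genes tested, 711 and 145 were called in these fits. Of 10 genes that report MAPK output, 0 were called, 5 were higher and 5 lower (median 0.02). For 1 of the 10, EPHA2, the groups did not overlap, with EGLN3 lower, against 3.62% of all genes. EPHA2 was at -0.15 (SE 0.12). CCND1, the cyclin D1 gene, averaged 96.4 FPKM and was at -0.01 (SE 0.17), and the ERK phosphatase gene DUSP6 was at -0.07 (SE 0.15).

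Several receptor tyrosine kinases outside the ERBB family had lower levels in all EGLN3 libraries than in any control. Of the 35 tested, the 3 ERBB receptors included, 0 were called, 14 were higher and 21 lower (median -0.11), and 4 had an unadjusted p under 0.05 in edgeR, against 1.11% of all genes. For 10 of the 35 the groups did not overlap, all with EGLN3 lower, against 3.62% of all genes. None of the 10 was an ERBB receptor. EPHB6, an ephrin receptor without kinase activity, measured 5.47, 5.23 and 5.19 FPKM in controls and 4.27, 4.22 and 4.11 FPKM with EGLN3, at -0.34 (SE 0.12; edgeR, unadjusted p = 0.0225, adjusted p = 1). MERTK, a receptor of the TAM family, was at -1.06 (SE 0.36; edgeR, unadjusted p = 0.0219, adjusted p = 1) at a low level of 0.177 FPKM. EPHA2 measured 89.6, 85.8 and 79.8 FPKM in controls and 77.3, 78.5 and 74.1 FPKM with EGLN3. With 1 surrogate variable the median of the list was -0.12 and 6 were called lower in edgeR, namely DDR1, EPHB4, AATK, EPHA1, EPHB6 and ROR1. That fit called 711 of all 15726 genes tested, in either direction. With the GC and length trends removed as well the median was -0.04 and 1 was called, ROR1 at -0.52 (SE 0.10; edgeR, adjusted p = 0.0067). Over all 15726 genes, 145 were called in that fit. In the fit without these terms ROR1 was at -0.34 (SE 0.47; edgeR, unadjusted p = 0.487), and its groups overlapped.

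**Figure D5:**
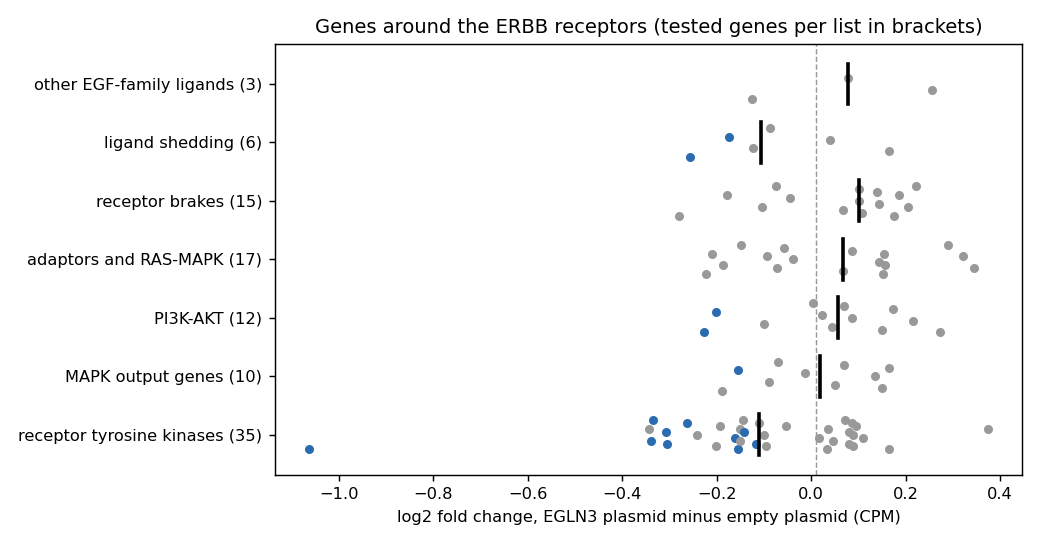
Log2 fold change in CPM, EGLN3 plasmid minus empty plasmid, for each tested gene (points) of 7 lists, with the number tested in brackets. Blue points are genes whose groups did not overlap, all lower with EGLN3, and grey points overlapped. Black bars are list medians and the dashed line is the median of all genes tested, 0.01; heights within a list only keep points apart. Of the 35 receptor tyrosine kinases, 10 are blue.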

How the data were processed

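Gene counts were deposited as whole numbers per library, unscaled. The deposited FPKM equal counts divided by gene length and 1 factor per library, from the values. Per the submitters' processing notes, the tools were featureCounts 1.5.0-p3, HISAT2 2.0.5 and DESeq2 1.20.0, on hg38, without a role for each. Neither gene annotation nor strandedness of counting is given in the sources used here. After filterByExpr and TMM scaling, counts were tested with edgeR 4.0.16 (quasi-likelihood, robust, no covariate) in R 4.3.3, with Benjamini-Hochberg adjustment over 15726 genes and a threshold of 0.05. CPM carry the TMM scaling. An SE is the log2 fold change divided by the square root of F. The test was checked on simulated counts that lacked the spread shared among genes in these libraries. That check therefore does not show how the test does on them. Libraries of a group differed by a chi-square per degree of freedom of 8.07 to 104, so each counted as 1 replicate.

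Alternatives were DESeq2 1.42.0, RLE scaling, other filters, the replicate number as a block, limma 3.58.1 on log2(FPKM + 1) and log2(FPKM + 0.1), 1 surrogate variable (sva 3.50.0) alone or with spline trends on GC content and length removed, and leaving out each library. Coding transcript lengths (GENCODE 29) were added after seeing the data. Named genes were the members, EGLN3, and from each list the 3 of highest FPKM or 2 of smallest p, of which some are given, together with genes like or overlapping a member. ERRFI1, USP8, ADAM10, ADAM17, EPGN, NRG3, DUSP6, ROR1, DDR1, EPHB4, AATK, EPHA1, EPCAM, CDX1, COL1A2, LUM and LST1 were named for their role or level after their values were seen. Members and lists were chosen with earlier results of these data known.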

Additional observations from a re-analysis of the deposited data

How the results depend on the processing

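None of the 9 tested members was called in the 6-library fit or in any of the 15 alternatives, and the smallest adjusted p was 0.0737, for ERBB2 with 1 surrogate variable (edgeR). ERBB2 stayed lower and EREG, BTC, HBEGF and NRG1 higher in every alternative that gave a value, though not by the same amount; NRG1 was too low for the FPKM fits. With 1 library left out, EREG ran from 0.03 to 0.40, BTC from 0.0127 to 0.197, HBEGF from 0.0887 to 0.419, NRG1 from 0.132 to 0.626 and ERBB2 from -0.196 to -0.0797. EREG was at 0.00214 and BTC at 0.0378 with 1 surrogate variable and trends removed. EGFR turned to -0.0928 with 1 surrogate variable and -0.0497 with GC and length trends removed as well. ERBB3 turned to -0.0264 with 1 surrogate variable, and TGFA to -0.0106 with both. With 1 library left out, the log2 fold change ran from -0.246 to 0.417 for EGFR, from -0.108 to 0.218 for ERBB3, from -0.161 to 0.197 for AREG and from -0.0702 to 0.176 for TGFA. The ERBB2 share of receptor FPKM differed by -0.854 to 0.0542 percentage points, turning without EGLN3 replicate 3. The count over all genes was 1, and it was 0 with limma on log2(FPKM + 1), 711 with 1 surrogate variable, 145 with trends removed as well, and 0 to 1 with 1 library left out. The cause of these shifts was not tested. With the replicate number as a block it was 0. Same-numbered libraries deviated in opposite directions (correlations of -0.79, -0.18 and -0.67). With 3 libraries a group these values cannot tell whether same-numbered cultures were handled together, and the labels do not say. The order of members held in controls alone, and BTC and HBEGF changed places in EGLN3 libraries alone. With 3 libraries a group and this spread, changes could go uncalled, and NRG1 and ERBB4 were also limited by their few counts. The intervals given above are not adjusted for the number of genes tested, so they do not mark which changes would be called. EPHB6, with an interval from 0.654 to 0.956 times the control level, was not called in the 6-library fit. The size of change that would be called was not tested.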
